A study of Homo sapiens with 4 samples.

Results

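Cholesterol is built from acetyl-CoA by a chain of enzymes in the cytosol, the peroxisome and the membrane of the endoplasmic reticulum (ER). Sterol regulatory element-binding proteins (SREBPs) switch on the genes of these enzymes when the ER membrane is short of sterol. INSIG proteins hold the SREBP escort protein SCAP in the ER when sterol is plentiful, and the genes they restrain include INSIG1 itself, so the set works as a feedback loop. Ribosome density on this set was followed with and without G418 in HEK293T cells, an established line from human embryonic kidney with the viral large T antigen. The aminoglycoside G418 acts at the decoding center, where near-cognate tRNAs can then read a stop codon (stop codon readthrough).

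The genes are those named HMGCS1, IDI1, FDPS, FDFT1, SQLE, LSS, DHCR7 or INSIG1, 8 genes in all. Of these, 5 (FDPS, FDFT1, LSS, DHCR7 and INSIG1) had a row in each of the 4 libraries, among 8568 transcripts listed in every library and 9271 listed in any. HMGCS1, IDI1 and SQLE had no row in the tables used and were not analysed here. The libraries were ribosome protected fragments (RPFs) from 2 untreated replicates (A and B, 0 µg/mL) and 2 replicates treated with 500 µg/mL G418 for 24 hr (A and B), all from the same cell line. The labels give no other difference between the groups.

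Recovered reads on mRNAs ranged from 2440204 (untreated B) to 6082600 (untreated A), so untreated B carries the least weight and the widest counting error. Over 6509 transcripts, the density between the normal termination codon (NTC) and the first in-frame termination codon of the 3′UTR (3′TC), divided by the density of the coding sequence (CDS), was 1.81 to 1.99% in untreated cells and 15.1 to 15.8% in G418-treated cells. This ratio is the ribosome readthrough score (RRTS). Of 7 markers fixed for HEK293T cells, 6 were listed in all libraries and PAX2 only in G418 A and B, with 9 and 12 CDS counts. KRT8, among the 6, had 8 to 27 CDS counts. Of 9 markers of other cell types, 7 had no row in any library, COL1A1 had 94 to 173 CDS counts and EPCAM had 4 to 13. A missing row need not mean few reads, since the authors also left out transcripts by their annotation.

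The stop codons of the 5 genes are of 2 kinds. FDPS, FDFT1 and LSS end in UGA, and DHCR7 and INSIG1 in UAA. With the next nucleotide (+4), the signals are UGA-C in FDPS, UGA-U in FDFT1, UGA-G in LSS and UAA-G in both DHCR7 and INSIG1. The 30 nt around the NTC are shown for 4 of the genes, because this is the stretch that a terminating ribosome covers and the place where readthrough starts. They run from 15 nt before the stop codon to 12 nt after it, 5′ to 3′, with the stop codon and the +4 nucleotide in capitals. The sequences come from GENCODE version 44 on hg38.
FDPS, chr1:155320592-155320621, plus strand: uacaagcggagaaagUGACcuagagauugc
LSS, chr21:46191092-46191121, minus strand: cuugcuggccaccccUGAGaacaugccuac
DHCR7, chr11:71435363-71435392, minus strand: cugccuggaaucuucUAAGggcacgcccua
INSIG1, deposited transcript, chr7:155308341-155308370, plus strand: gauuaucuuuuuucuUAAGuaaucuauuua
INSIG1, MANE Select transcript, chr7:155308253-155308282, plus strand: aagccccauagugauUGAGucuucaaaacc
The FDFT1 sequence is not shown. In all 5 genes the CDS length and the 4 nt signal of the annotation equalled those in the deposited tables.

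What a ribosome meets after the NTC differed among the genes. FDFT1 has its first in-frame 3′TC, a UAG, after 5 codons. INSIG1 has one after 19 codons, LSS after 45 and DHCR7 after 50. FDPS has none, and its 3′UTR of 56 nt leaves room for 18 codons before the mRNA ends. The counts skip the 6 nt next to the NTC. Lengths used for the score were 12 nt in FDFT1, 44 nt in FDPS, 54 nt in INSIG1, 132 nt in LSS and 147 nt in DHCR7. Where there is a 3′TC, the length runs to its end and takes in the 3′TC codon. For FDPS the deposited score used 44 nt, although 50 nt remain after the 6 nt. Over 50 nt its ratio to the CDS density was 19.3% and 10.1% in G418 A and B.

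INSIG1 needs a separate description, because the tables use the transcript with the stop codon farthest toward the 3′ end. In INSIG1 this transcript (ENST00000344756.8) has a CDS of 537 nt, against 834 nt in the MANE Select transcript (ENST00000340368.9). Only 65.2% of its coding nucleotides are also coding, in the same frame, in the MANE transcript. The MANE stop codon is a UGA-G that lies 88 nt upstream of the deposited UAA-G and in another frame, and its own first in-frame 3′TC, a UGA, ends 66 nt after the NTC. That window falls inside the deposited CDS, so readthrough of the MANE form would be counted there as CDS reads. By position alone, 70.2% of the deposited coding nucleotides are coding in both forms. The INSIG1 values below are therefore those counted on the deposited transcript, and reads of the MANE form were not separated from them. For LSS (ENST00000356396.8) and DHCR7 (ENST00000407721.6) the MANE transcript is a different one. For FDPS, the annotation holds 8 pseudogenes named after it, and reads that map to several places were kept at 1 place, so its read assignment is uncertain.

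FDPS makes farnesyl diphosphate, the branch point between sterols and the isoprenoids used for prenylation, dolichol and ubiquinone. Its CDS density was 190 and 180 RPKM in untreated A and B and 173 and 155 RPKM in G418 A and B. Both G418 libraries were below both untreated libraries. The means were 185 ± 6.84 RPKM (SD, n = 2) and 164 ± 13.1 RPKM (SD, n = 2). The log2 fold change of CDS counts, G418 against untreated, was -0.25 (SE 0.09, 95% interval -0.43 to -0.07), with an adjusted p of 0.078 by edgeR's quasi-likelihood test. It did not pass at 0.05. The densities are scaled to library totals and the fold changes by edgeR's TMM factors, so they can differ in size and direction.

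FDFT1, squalene synthase, joins farnesyl diphosphate molecules into squalene, the first step committed to sterols. Its CDS density was 194 and 157 RPKM in untreated A and B and 186 and 177 RPKM in G418 A and B. The G418 libraries lay between the untreated ones, and the log2 fold change was -0.028 (SE 0.09, 95% interval -0.21 to 0.16, edgeR adjusted p = 0.89). The mean density was 176 RPKM in untreated and 182 RPKM in G418-treated cells, so under the scaling to library totals the direction differed. The 2 untreated replicates differed from each other by more than the conditions did.

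LSS, lanosterol synthase, folds squalene epoxide into the first sterol ring system. It had the lowest density of the 5, at 22.2 and 23.3 RPKM in untreated A and B and 22.2 and 22.9 RPKM in G418 A and B. The groups overlapped, and the log2 fold change was -0.07 (SE 0.12, 95% interval -0.31 to 0.17, edgeR adjusted p = 0.78).

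DHCR7, 7-dehydrocholesterol reductase, makes cholesterol from 7-dehydrocholesterol at the end of the chain. Its CDS density was 142 and 149 RPKM in untreated A and B and 148 and 131 RPKM in G418 A and B. G418 B was the lowest of the 4 and G418 A lay between the untreated libraries. The log2 fold change was -0.13 (SE 0.09, 95% interval -0.32 to 0.06, edgeR adjusted p = 0.42).

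INSIG1, the ER protein that holds SCAP in place and takes part in the sterol-driven turnover of HMG-CoA reductase, was the gene with both G418 libraries above both untreated libraries. Its CDS density was 68.9 and 64.8 RPKM in untreated A and B and 86.8 and 87.7 RPKM in G418 A and B. The G418 mean of 87.3 ± 0.602 RPKM (SD, n = 2) stood against 66.8 ± 2.89 RPKM (SD, n = 2). The log2 fold change was 0.31 (SE 0.12, 95% interval 0.06 to 0.56), and the edgeR adjusted p of 0.11 did not pass. With library totals in place of TMM scaling the value was 0.40 and passed (edgeR adjusted p = 0.032). The densities rest on 127 to 367 CDS reads, the fewest of the 5 genes. These reads may include those of the MANE form, also past its stop codon, and the share of each form was not tested.

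**Figure D1:**
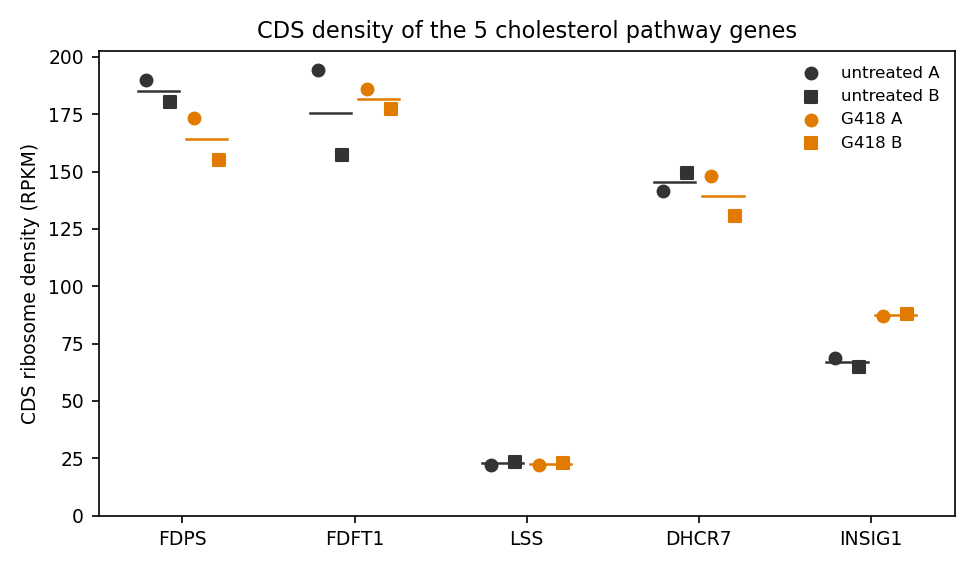
CDS ribosome density (RPKM, linear axis from 0) of the 5 genes in each library, with circles for replicate A, squares for replicate B and a line at the mean of each condition. INSIG1 is higher in both G418 libraries (86.8 and 87.7 RPKM, against 64.8 and 68.9), FDPS is lower in both, and the conditions overlap for FDFT1, LSS and DHCR7.

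Across the 5 genes, edgeR called 0 higher and 0 lower in CDS counts. Over all 8494 transcripts tested, 5.31% were called higher and 3.21% lower, so a count of 0 among 5 is close to that background. These are 451 and 273 transcripts, and with library totals in place of TMM they were 809 and 139. At an unadjusted p under 0.05, 1 of the 5 was higher (INSIG1) and 1 lower (FDPS), beside 12.7% higher and 10.1% lower over all transcripts tested. DESeq2 also called 0. The median log2 fold change of the 5 was -0.07, beside 0.0025 over all transcripts tested. When 1 library was left out, the log2 fold change was -0.28 to -0.22 for FDPS, -0.24 to -0.039 for DHCR7 and 0.25 to 0.37 for INSIG1. Whether these genes passed changed with the library left out. Each of these settings leaves 1 library in a group, which is then assumed to vary like the pair in the other group. With 2 libraries a group, an exact permutation test of a single gene cannot give a two-sided p below 0.333, so none was used. A separation of the libraries by condition, as in FDPS and INSIG1, therefore carries little weight alone. The share of all transcripts that separate this way was not counted.

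In order of CDS density per length, FDPS, FDFT1 and DHCR7 formed an upper group, followed by INSIG1 and then LSS. FDPS and FDFT1 overlapped in untreated cells. In G418-treated cells FDFT1 (177 to 186 RPKM) lay above FDPS (155 to 173 RPKM). INSIG1 lay below DHCR7 and above LSS in every library. FDPS exceeded 90.5 to 91.9% of the transcripts listed in all libraries and LSS 53.7 to 59.3%. The 5 genes thus lay at or above the middle of these transcripts.

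Other genes of sterol metabolism were counted in 5 lists. Among 12 other enzymes of sterol synthesis, including HMG-CoA reductase, which catalyzes the rate-limiting step, 0 passed the CDS test with edgeR. At an unadjusted p under 0.05, 1 of the 12 was higher, beside 12.7% of all transcripts tested. Their median log2 fold change was -0.016. Of the 47 genes of all 5 lists reported here, 1 was higher (NUS1) and 2 were lower (FASN and ACLY). Over all transcripts tested, 5.31% were higher and 3.21% lower, so these counts lie near that background. The median of the 47 was -0.011.

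Among the 13 genes of sterol sensing, uptake and trafficking reported here, 0 passed the CDS test with edgeR. At an unadjusted p under 0.05, 1 of the 13 was higher, beside 12.7% of all transcripts tested. Their median log2 fold change was -0.013.

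Among 10 genes of fatty acid synthesis that SREBPs also control, FASN and ACLY were called lower and 0 were called higher. The shares over all transcripts tested were 3.21% lower and 5.31% higher. The median log2 fold change of the 10 was 0.0015. FASN, fatty acid synthase, was at 137 and 159 RPKM in untreated A and B and at 109 and 108 RPKM in G418 A and B, with a log2 fold change of -0.52 (SE 0.09, edgeR adjusted p = 0.00022). ACLY, which supplies cytosolic acetyl-CoA to both fatty acid and sterol synthesis, was at 255 and 249 RPKM and at 221 and 199 RPKM, with a log2 fold change of -0.34 (SE 0.08, edgeR adjusted p = 0.0056). In both genes the G418 libraries lay below the untreated libraries. The FASN call was lost without G418 A (-0.48, edgeR adjusted p = 0.090). The ACLY call was lost without G418 A (-0.36, edgeR adjusted p = 0.35) or G418 B (-0.32, edgeR adjusted p = 0.49).

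Among 8 genes of the isoprenoid branches, which use the product of FDPS, NUS1 was called higher and 0 were called lower. The shares over all transcripts tested were 5.31% higher and 3.21% lower. The median log2 fold change of the 8 was -0.084. NUS1 is a subunit of the prenyltransferase that makes dolichol precursors. Its CDS density was 21.9 and 20.3 RPKM in untreated A and B and 31.2 and 33.3 RPKM in G418 A and B, with a log2 fold change of 0.54 (SE 0.15, edgeR adjusted p = 0.022). The call was lost with DESeq2 (0.53, adjusted p = 0.20) and without G418 A (0.64, edgeR adjusted p = 0.23) or G418 B (0.43, edgeR adjusted p = 0.63).

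The list of sterol efflux, esterification and the LXR receptors had 4 genes tested and 0 passed in edgeR, also at an unadjusted p under 0.05. SOAT1, which esterifies cholesterol in the ER, had a log2 fold change of -0.042 (SE 0.10). The LXR genes NR1H2 and NR1H3 were at 0.12 (SE 0.24) and 0.11 (SE 0.25). MYLIP, a ubiquitin ligase for the LDL receptor, was at 0.40 (SE 0.32) on 6 to 42 CDS counts per library, with values from 0.13 to 1.32 when 1 library was left out. With library totals SOAT1 was at 0.043, and it changed direction.

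**Figure D2:**
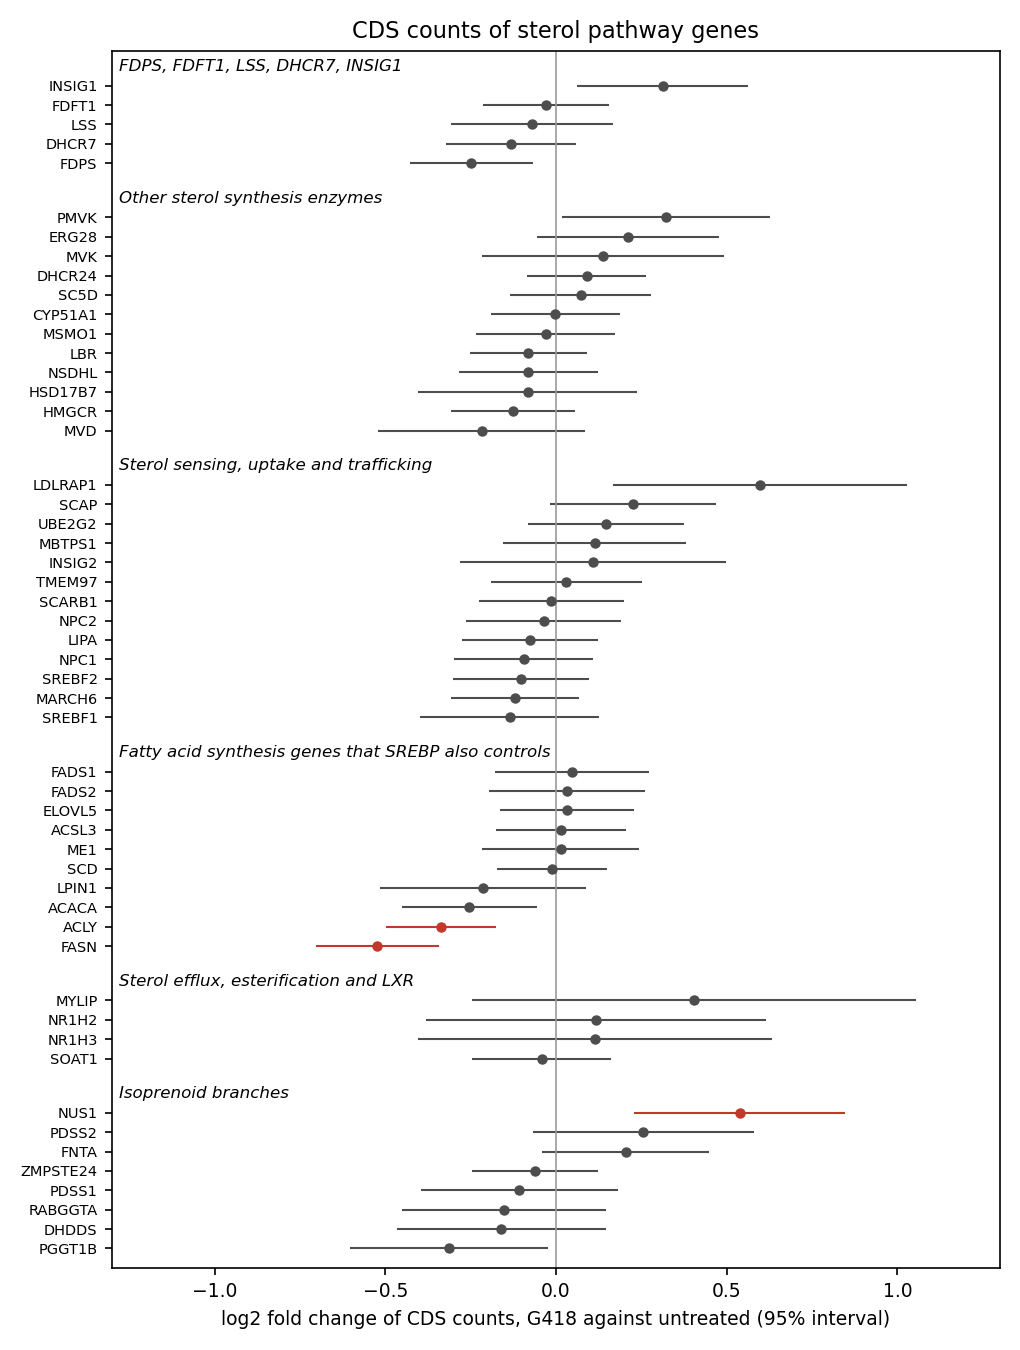
Log2 fold change of CDS counts, G418 against untreated, with its 95% interval, for the 5 genes and the 47 genes of the 5 lists, ordered by value within each list. Red marks the 3 genes past an edgeR adjusted p of 0.05: NUS1 (0.54) is higher and FASN (-0.52) and ACLY (-0.34) lower, while FDPS (-0.25) and INSIG1 (0.31) have intervals that leave out 0 but do not pass the adjustment.

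Reads past the stop codon were next counted for each of the 5 genes. In untreated cells they were rare. The window up to the end of the first 3′TC, or up to the mRNA end in FDPS, held 1 read in FDPS, 1 in LSS and 3 in DHCR7, all in untreated A. FDFT1 and INSIG1 had 0 reads in both untreated libraries, and untreated B had 0 reads in all 5 genes. With 3 reads as the smallest detectable count, a score of 0 in untreated B allows an RRTS of up to 3.51% for DHCR7 and up to 40.9% for FDFT1. Over both untreated libraries this 3-read limit was 10.7% for FDFT1, and the exact counting interval of its 0 reads reached 13.1%. That interval overlaps the one of its pooled G418 score (11.8 to 48.8%). Its G418 A score of 16.0% rests on 3 reads, the smallest detectable count. The ratio of its reads per CDS read, G418 against untreated, had a lower counting limit of 1.59.

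In G418-treated cells each gene had reads in this window in both libraries. FDPS held 14 and 6 reads in G418 A and B, which gave an RRTS of 21.9% and 11.5% of the CDS density. FDFT1 held 3 and 6 reads (RRTS 16.0% and 36.8%). LSS held 3 and 4 reads (RRTS 12.2% and 17.2%). The highest untreated score among these 3 genes with a UGA stop codon was 3.82%, in LSS.

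DHCR7 held 25 and 17 reads in G418 A and B (RRTS 13.7% and 11.5%). INSIG1 held 3 and 5 reads (RRTS 7.63% and 13.8%). In these genes with a UAA stop codon the untreated scores were 0% to 1.61%. The library-wide score also rose, from 1.81 to 1.99% in untreated cells to 15.1 to 15.8% in G418-treated cells.

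Of the 5 genes, 2 had the 10 reads needed for the test of readthrough per CDS read, and both reached them only through the G418 libraries, so the filter itself favours a higher value. With that limit, the log2 fold change was 4.18 for FDPS (SE 1.11, edgeR adjusted p = 0.00040) and 3.53 for DHCR7 (SE 0.69, edgeR adjusted p = 1.6e-06). Of 2827 transcripts tested, 82.6% were called higher, 0.0707% were called lower and the median was 3.34, so these values are like those of most tested transcripts, and the calls are given as a description. From the summed reads, the ratio per CDS read was 18.2 in FDPS (1 read against 20, 95% counting interval 2.91 to 753) and 11.5 in DHCR7 (3 reads against 42, 95% counting interval 3.68 to 58.1). The FDPS call was lost without G418 A (3.60, edgeR adjusted p = 0.10).

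Against the rise of the whole library, neither gene stood apart. After the aggregate RRTS of each library was added to the offset, the log2 fold change was 1.18 for FDPS (SE 1.49, 95% interval -1.74 to 4.10, edgeR adjusted p = 0.68) and 0.53 for DHCR7 (SE 0.90, 95% interval -1.23 to 2.28, edgeR adjusted p = 0.79). The intervals span several log2 units, so a smaller or a larger rise than that of the library was not detectable at this depth. Over all transcripts tested, 3.82% were called higher and 5.77% lower relative to the library.

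Set beside transcripts with the same 4 nt signal, the 5 genes differed in where they stood. In G418-treated cells the pooled RRTS of FDPS was 17.2% (95% counting interval 10.5 to 26.6%), above that of 21.6% of 759 UGA-C transcripts, whose median was 38.9%. FDFT1 had 25.7% (11.8 to 48.8%) beside a median of 32.1% over 486 UGA-U transcripts. LSS had 14.7% (5.89 to 30.2%) beside a median of 20.03% over 1375 UGA-G transcripts. With both G418 libraries pooled, all 3 UGA genes were below the median of their signal. In G418 B alone FDFT1 (36.8%) was above it (29.7%). Of the pooled values, only the interval of FDPS left that median out. The FDPS window ends at the mRNA end and not at a 3′TC, and the effect of this on its score was not tested.

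DHCR7 had 12.7% (9.18 to 17.2%) and INSIG1 10.6% (4.57 to 20.8%), beside a median of 10.2% over 490 UAA-G transcripts. Both UAA-G genes lay near the middle of their signal, with 56.3% and 50.8% of these transcripts below them. These shares are descriptions, since the transcripts of one library share its depth and treatment. The CDS density behind the INSIG1 score may include reads of the MANE form.

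**Figure D3:**
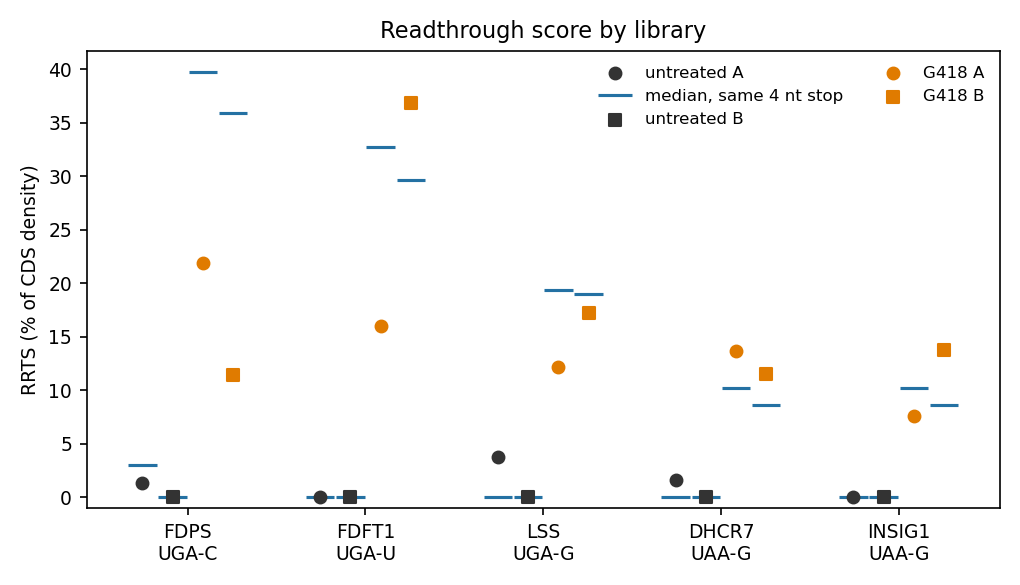
RRTS (percent of the CDS density) of the 5 genes in each library, with untreated libraries in black, G418 libraries in orange, and a blue line at the median of transcripts with the same 4 nt stop signal and enough mRNA reads in that library. G418 libraries lie at 7.63% to 36.8% and untreated libraries at 0% to 3.82%, and FDPS (21.9% and 11.5%) lies below the UGA-C line in both G418 libraries.

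The 3 genes with too few reads for that test could be tested over the whole 3′UTR, where 70.3% of 4086 transcripts were called higher. FDFT1 had 4 and 0 reads in its 3′UTR in untreated A and B and 29 and 33 in G418 A and B, with a log2 fold change of 3.64 (SE 0.56, edgeR adjusted p = 9.0e-10). INSIG1 had 5 and 1 reads against 14 and 13, with a log2 fold change of 1.49 (SE 0.68, edgeR adjusted p = 0.042). LSS had 1 and 1 reads against 3 and 6, and its log2 fold change of 1.85 did not pass (SE 1.18, 95% interval -0.46 to 4.15, edgeR adjusted p = 0.15). These 3 were again admitted through their G418 reads, so the values are descriptions.

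The 3′UTR reads were next split at the end of the first 3′TC, so the part called before it takes in the 3′TC codon. The raw split follows in part from the lengths on either side. In FDFT1, 26 of 29 and 27 of 33 of the 3′UTR reads in G418 A and B lay after the first 3′TC, which stands 5 codons from the NTC. Those reads numbered 4 and 0 in untreated A and B, a ratio per CDS read of 10.6 (95% counting interval 3.92 to 40.5). Per nucleotide, their density was 10.5% of that before the 3′TC (95% counting interval 5.15 to 24.3%).

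In DHCR7, with 50 codons before its first 3′TC, 3 of 28 and 5 of 22 of its 3′UTR reads in G418 A and B lay after the 3′TC, a density of 3.47% of that before it (95% counting interval 1.41 to 7.47%). Against untreated cells these reads had a ratio per CDS read of 1.64 (95% counting interval 0.441 to 7.46). In INSIG1, 11 of 14 and 8 of 13 lay after it, over 1815 nt, a density of 7.07% (95% counting interval 2.95 to 18.7%). The INSIG1 reads after the 3′TC had a ratio per CDS read of 1.96 against untreated cells (95% counting interval 0.753 to 5.997). In LSS it was 6.49% (95% counting interval 0.658 to 34.1%). All 4 genes with a 3′TC thus held fewer reads per nucleotide past it, and their counting intervals overlapped. The 3′UTRs hold 9 in-frame stop codons in FDFT1, 6 in LSS, 10 in DHCR7 and 40 in INSIG1, the first 3′TC included. The part after it thus holds further stops, and the part before it takes in the 3′TC codon, where the paper reports ribosomes enriched. These percentages therefore do not measure passage of the first 3′TC alone, and a lower density past it was likely beforehand. The intervals cover counting error only.

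**Figure D4:**
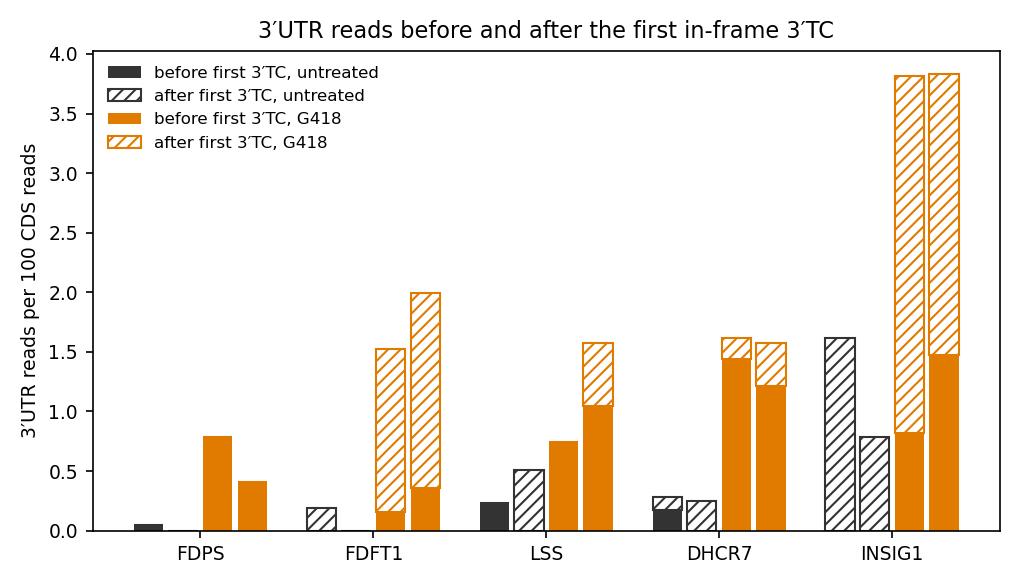
3′UTR reads per 100 CDS reads for each gene, bars in the order untreated A, untreated B, G418 A and G418 B, with filled parts for reads up to the 3′TC that comes first in frame (in FDPS, up to the mRNA end) and hatched parts for reads after it. In DHCR7 25 of 28 and 17 of 22 reads of the G418 libraries lie before the 3′TC, in FDFT1 3 of 29 and 6 of 33, and FDPS and FDFT1 have no read in untreated B.

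Among the 47 genes of the 5 lists, 26 could be tested for readthrough and 24 were called higher, beside 82.6% over all transcripts tested. The minimum of 10 reads admits genes through their G418 reads, so this count is a description and supports nothing about the lists. Relative to the rise of the library, 1 of the 26 was called higher and 1 lower.

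Reads on the 5′UTR were counted as a measure separate from readthrough. DHCR7 had by far the most, 122 and 40 reads in untreated A and B and 117 and 100 in G418 A and B. This came to 6.92 and 4.93 reads per 100 CDS reads in untreated cells and 6.76 and 7.15 in G418-treated cells. Untreated B was the lowest, and G418 A lay below untreated A. Per nucleotide, the 5′UTR density was 32.5% to 47.03% of the CDS density, above that of 58.9 to 76.3% of transcripts with at least 100 CDS reads in each library. The annotated 5′UTR of 212 nt holds 0 AUG triplets.

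In the other genes 5′UTR reads were fewer. FDPS had 33 and 13 reads in untreated A and B and 13 and 20 in G418 A and B, or 1.58 and 1.51 against 0.729 and 1.37 per 100 CDS reads. FDFT1 had 16 and 5 against 8 and 6, or 0.756 and 0.670 against 0.420 and 0.362 per 100 CDS reads. For both, the G418 libraries lay below the untreated libraries, and the share of all transcripts that separate this way was not counted. INSIG1, whose deposited 5′UTR of 211 nt holds 1 AUG triplet, had 1 to 7 reads per library, and LSS had 0 or 1.

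Of the 5 genes, 3 were tested for 5′UTR reads per CDS read and 0 passed in edgeR, also at an unadjusted p under 0.05, which 2.3% of all transcripts tested passed higher and 11.5% lower. DESeq2 gave an adjusted p only for DHCR7 (0.80), which did not pass. The background was 0.0274% called higher and 1.70% lower, with a median log2 fold change of -0.17. The log2 fold change was -0.60 for FDPS (SE 0.39, 95% interval -1.45 to 0.24, edgeR adjusted p = 0.55), -0.89 for FDFT1 (SE 0.53, 95% interval -2.02 to 0.23, edgeR adjusted p = 0.49) and 0.20 for DHCR7 (SE 0.24, 95% interval -0.31 to 0.70, edgeR adjusted p = 0.76).

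Promoter windows of 300 bases around the annotated start from RefSeq, on GRCh38.p14, were searched on both strands for letters known from SREBP-controlled genes. The windows matched 6 of the 8 gene names, with 10 windows in all, and FDFT1 and SQLE were not matched. Windows of HMGCS1 overlap each other, and so do windows of IDI1. The same bases can thus be counted more than once, and the 10 windows are not separate promoters. The sterol regulatory element TCACNCCAC was found in none of the 10 windows and in 1.13% of all 35116. At so low a share, none in 10 windows says little, and other forms of the element were not searched. CCAAT, which the factor NF-Y binds, was found in 7 of the 10 windows, and in 34.6% of all windows. GGGCGG, which Sp1 binds, was found in 9 of the 10 windows, and in 45.0% of all windows. CACGTG was found in the windows of INSIG1 and LSS and in 7.26% of all windows. A match is a string of letters and was not tested for binding here.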

How the data were processed

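RPF libraries of HEK293T cells, 2 untreated and 2 treated with G418, were analysed. The authors removed duplicate reads by molecular identifiers, discarded noncoding RNA, aligned to hg38 with STAR (GENCODE splice sites), kept 1 alignment for reads that map to several places, and chose 1 transcript per gene, that with the 3′-most stop codon. They deposited counts of full-length RPFs, RPM values, RPKM densities and, as a ratio, RRTS and 3′UTR occupancy. Their 5′UTR density, deposited with lengths of 0 or less for some transcripts, was taken as a score and left unused. Reads were recovered from the RPM steps, and 100% of values were whole. The deposited counts are these reads or 1 less, which for the 5′UTR holds for 78.4% of transcripts in G418 A, so low-count measures used recovered reads (for the 5′UTR, a choice made after the values were seen).

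The 8 genes and the lists were chosen with earlier results of these data known. The genes named from the lists are those past the CDS test, at most 4 per direction, or all of a list with at most 4 tested. Of the lists, 1 gene is not reported here. CDS counts were tested with edgeR's quasi-likelihood test (TMM, low-count filter). Readthrough reads (at least 10, and 128 mRNA reads per condition) and 5′UTR reads (at least 20) were fitted with an offset, log(CDS reads + 0.5). P-values were adjusted by Benjamini-Hochberg over all transcripts tested, with a threshold of 0.05. The study's methods call the replicates biological. Intervals of counts are exact (95%). On simulated data with 8-fold changes, edgeR recovered 100% of changed genes for CDS counts (7.41% false) and 86.6% for readthrough (4.90% false). With 4-fold changes it recovered 63.7% for readthrough (3.85% false). DESeq2 recovered 62.4% and 30.6% for readthrough at 8-fold and 4-fold. The simulated readthrough rate was pooled over both conditions, so genes with a rise had more untreated reads than in the real libraries. Smaller changes, such as those of the CDS counts here, were not simulated. Alternatives were other scalings, filters and minimum reads, DESeq2, a replicate block and leaving out each replicate. Tools were edgeR 4.0.16 and DESeq2 1.42.0 in R 4.3.3, and scipy 1.17.1, pandas 2.3.3 and matplotlib 3.10.9 in Python 3.11.15.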

Additional observations from a re-analysis of the deposited data

How the results depend on the processing

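The number of transcripts called higher and lower in CDS counts, 451 and 273, became 809 and 139 with library totals and 113 and 137 with DESeq2, and ranged from 57 to 990 and from 15 to 1092 when 1 replicate was left out. Library totals turned the log2 fold changes of FDFT1 (0.057), LSS (0.016) and SOAT1 (0.043). Leaving out 1 replicate gave -0.11 to 0.073 for FDFT1, -0.18 to 0.0022 for LSS, -0.14 to 0.091 for SOAT1, -0.18 to 0.38 for NR1H3 and -0.12 to 0.28 for NR1H2. None of these passed under any setting, and the cause was not tested. Readthrough calls, 2336 higher and 2 lower, became 1536 higher with a minimum of 20 reads, 1408 and 1 with DESeq2, and 10 lower over the whole 3′UTR, and ranged from 1496 to 2265 and from 1 to 2 without 1 replicate. Relative to the library, 108 were higher and 163 lower, and 6 to 76 and 45 to 144 without 1 replicate. For the 5′UTR, 1 was higher and 62 lower, 0 and 41 with DESeq2, and 0 to 51 and 11 to 357 without 1 replicate. Of the readthrough calls of FDPS and DHCR7, that of FDPS without G418 A (3.60) was lost, and they held under the other alternatives run. Over the whole 3′UTR the DHCR7 value was 2.55, against 3.53. Without untreated A no read was left in the untreated group for either gene, so no fold is given. With the deposited 5′UTR counts, a setting chosen after seeing the data, 0 were higher.

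The replicate block gave 452 lower for CDS counts, 108 lower relative to the library and 6 higher for the 5′UTR. With it FDPS passed the CDS test (-0.25, edgeR adjusted p = 0.038). The letters are shared labels only: deviations of the same letter correlated at r = 0.136 over 8494 transcripts and at 0.299 over the 3557 with the most CDS counts, with 2 pairs. Deposited counts for the window before the 3′TC were not used here, so that alternative was not run. The number of reads limits the readthrough results: 0 to 3 untreated reads per gene.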
